A study of Mus musculus with 16 samples.

Results

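Meis2 GABAergic neurons of the mouse hypothalamus and preoptic area (hypothalamus-POA) were taken as single cells that held at least 2 UMIs of Meis2, at least 2 UMIs of Gad1, Gad2 and Slc32a1 together, and no UMI of Slc17a6. A UMI is a molecular barcode that marks 1 captured transcript. Each cell also had more than 200 and fewer than 4000 genes, under 15% of its UMIs on mitochondrial genes, and at least 3 of 8 pan-neuronal genes (Snap25, Syt1, Stmn2, Snhg11, Meg3, Celf4, Map1b and Ndrg4). There were 121 such cells among 55675 kept cells, which is 0.217% of all cells, 1.25% of 9679 neurons and 4.35% of 2782 GABAergic neurons by the same rule without the Meis2 limit. The values of these 13 genes chose the cells, so their levels are a description here and none was tested.

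Drop-seq was run on 16 female mice, 1 library a mouse, to ask how tamoxifen acts on hypothalamic cells and whether estrogen receptor alpha, the product of Esr1, is needed. The mice were of a mixed CD-1 and 129P2 background and 8 to 10 weeks old when injections began, and each received 28 daily subcutaneous injections of corn oil or of tamoxifen at 0.1 mg/kg, with collection 2 hr after the last. Wild-type mice (Cre-negative littermates) numbered 3 under oil (libraries S1, S5 and S10) and 5 under tamoxifen (S3, S8, S9, S13 and S16). Conditional knockout mice (Esr1 cKO: Esr1 F/F with an Nkx2-1Cre BAC transgene) numbered 4 under oil (S4, S7, S12 and S14) and 4 under tamoxifen (S2, S6, S11 and S15). Cre in these mice acts in cells with a history of Nkx2-1, a transcription factor of the ventral hypothalamus and medial ganglionic eminence, so Esr1 is not deleted in every neuron. By the study's methods the groups were processed side by side over 4 days, 4 mice a day, but the labels do not tie libraries to days. Of Nkx2-1 itself, the 121 cells held 1 UMI.

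Meis2 is a homeodomain transcription factor of the TALE class that binds DNA together with PBX proteins. In the developing forebrain it is known as a mark of the lateral ganglionic eminence and the striatal, olfactory and amygdalar neurons that come from it, and it also marks GABAergic neurons of the prethalamus and midbrain. GABAergic neurons make GABA with the glutamate decarboxylases GAD67 (Gad1) and GAD65 (Gad2) and load it into vesicles with the transporter VGAT (Slc32a1), and in the hypothalamus many of them also release neuropeptides.

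The cells held a median of 3348 UMIs and 2028 genes, compared with 2361 UMIs and 1563 genes in 2541 other GABAergic neurons with no Meis2 UMI and 587 UMIs in 41715 cells without neuronal markers. Their Meis2 count was 2 UMIs in 55 cells, 3 in 21, 4 in 22 and 5 or more in 23, with a highest count of 9. All 3 GABA genes were found in 64 cells. The 120 GABAergic neurons just outside the limit, with 1 Meis2 UMI, had a median of 2315 UMIs where those just inside, with 2, had 2653. In CPM (UMIs scaled to a common total for each class), Arpp21 stood at 335 CPM just outside and 372 just inside, Plcb1 at 365 and 361, Pbx3 at 53.8 and 166, Gal at 622 and 45.8, and Avp at 206 and 28.6. Arpp21 and Plcb1 were thus alike on the 2 sides of the limit, and Gal and Avp were not. Ppp1r1b stood at 62.8 CPM just outside and 51.6 just inside, and Tac1 at 308 and 206, so neither was lower just outside.

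A further pair of genes given as markers of these neurons were not part of the rule. Sp9, a zinc finger factor of lateral ganglionic eminence lineages, had 12 UMIs in 5 libraries (26.1 CPM, against 11.5 CPM in other GABAergic neurons), and Pnoc, the precursor of nociceptin, had 32 UMIs in 10 libraries (69.7 against 92.9 CPM). Neither passed the test described below (log2 fold changes of 1.74, SE 0.76, and -0.11, SE 0.37, with edgeR adjusted p of 0.275 and 0.939). The cells are therefore called by their rule, Meis2 with GABA genes.

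Esr1 was found in every library, at 90.8, 41.7 and 16.4 CPM over all kept cells of wild-type oil mice S1, S5 and S10. In wild-type tamoxifen mice S3, S8, S9, S13 and S16 it stood at 69.2, 54.8, 54.6, 40.5 and 46.1 CPM. In Esr1 cKO oil mice S4, S7, S12 and S14 it stood at 33.2, 38.2, 36.3 and 34.8 CPM, and in Esr1 cKO tamoxifen mice S2, S6, S11 and S15 at 44.1, 60.3, 10.1 and 54.3 CPM. The genotype groups overlapped under both treatments, under oil through S10 alone: without it, the wild-type oil mice (41.7 and 90.8 CPM) lay above all 4 Esr1 cKO oil mice (33.2 to 38.2 CPM). A 3' tag counts the transcript whether or not the floxed exon has been removed, so these levels do not check the deletion. In the Meis2 GABAergic neurons Esr1 was rare: 10 UMIs in 8 libraries, in 8.26% of cells (95% Clopper-Pearson interval 4.03 to 14.7%), against 10.4% of other GABAergic neurons and 2.79% of non-neuronal cells at their lower depths. At a fixed 1000 UMIs a cell the shares were 2.5% in Meis2 cells, 4.19% in other GABAergic neurons and 3.43% in non-neuronal cells, so the Meis2 share is not read as expression. Its level was 21.8 CPM in the Meis2 class and 51.2 CPM in other GABAergic neurons, and the difference did not pass the test in the 5 libraries (log2 fold change -1.52, SE 0.71, edgeR adjusted p = 0.334).

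Libraries S10 and S11 stood apart. Every listed barcode of these 2 libraries had at least 100 genes, where the others went down to 20, and several genes common elsewhere were nearly missing from them. Myo3a, an unconventional myosin, had 1 UMI in the other GABAergic neurons of S10 and 1 in those of S11, and 470 to 1986 in each of the other 14 libraries. Traf5, an adaptor of TNF receptor signalling, Gm20388 and the potassium channel gene Kcnq1 had 0 UMIs in both classes of S10 and S11. These 3 genes had 78 to 537 (Traf5), 107 to 393 (Gm20388) and 26 to 156 (Kcnq1) UMIs in the other GABAergic neurons of the remaining 14 libraries. The 2 libraries belong to different groups (wild-type oil and Esr1 cKO tamoxifen), and S11 holds 22 of the 121 cells, more than any other library. The reason for the gap was not tested. Counts without them are given beside most gene lists, and values without them for clusters 1 to 3.

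**Figure D1:**
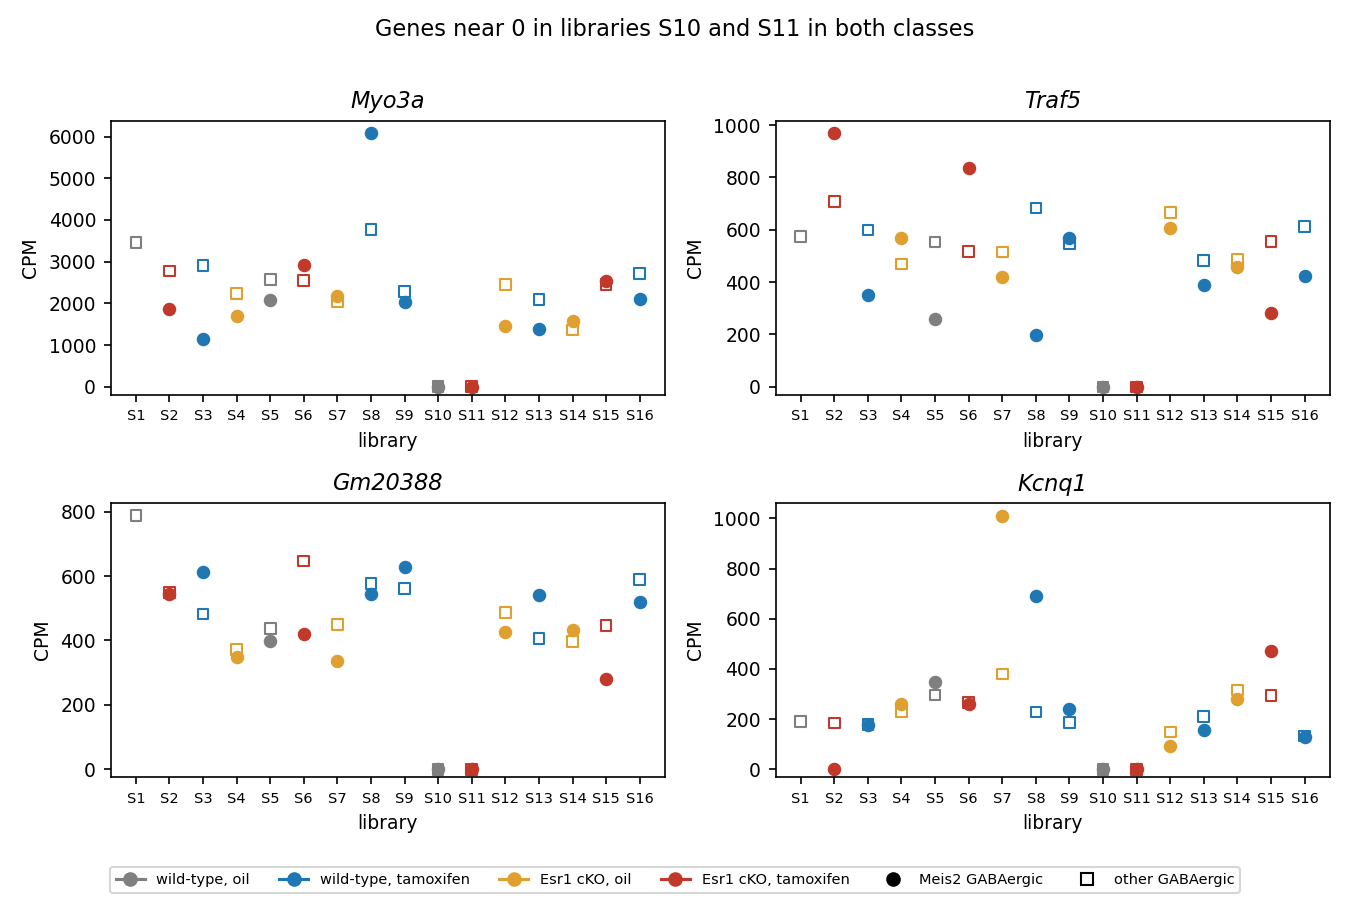
Levels in CPM (vertical axes) of 4 genes in each library (horizontal axes), in Meis2 GABAergic neurons (filled circles) and other GABAergic neurons (open squares), coloured by group; S1 had none of the former. S10 and S11 lie at or near 0 in both classes for Myo3a, Traf5, Gm20388 and Kcnq1.

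Cell barcodes were shared between libraries, most of all within 4 fours of libraries. There 24 to 873 listed barcodes were shared by a pair, before cells were filtered, against 1 to 191 between fours. The barcode of 13 of the 121 cells was listed in another library, and for 2 of them it was a kept cell there. Scrublet called 476 doublets among the 55675 kept cells (0.855%) and none of the 121 cells. It called under 0.5% in 8 libraries, so it is no safeguard there.

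The share of Meis2 cells among GABAergic neurons ran from 0 to 9.43% between mice. In wild-type oil mice it was 0% in S1 (0 of 50 cells, 95% Clopper-Pearson interval 0 to 7.11%), 9.43% in S5 and 2.89% in S10. In wild-type tamoxifen mice it was 2.08% in S3, 3.73% in S8, 5.68% in S9, 2.03% in S13 and 5.74% in S16. The 2 wild-type groups overlapped, since S1 and S5 were the lowest and the highest of all 16 mice. In Esr1 cKO mice the share was 5.76% in S4, 2.52% in S7, 2.42% in S12 and 5.00% in S14 under oil. It was 2.06% in S2, 8.33% in S6, 7.12% in S11 and 4.00% in S15 under tamoxifen, so these groups overlapped too. The 95% Clopper-Pearson interval for S5 was 5.38 to 15.1%, that for S6 3.67 to 15.8% and that for S13 0.663 to 4.68%, and these intervals cover counting error only.

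The group means were 4.11% ± 4.83 (SD, n = 3) in wild-type oil, 3.85% ± 1.83 (n = 5) in wild-type tamoxifen, 3.92% ± 1.71 (n = 4) in Esr1 cKO oil and 5.38% ± 2.87 (n = 4) in Esr1 cKO tamoxifen mice. Tamoxifen minus oil came to -0.25 percentage points in wild-type mice (exact permutation test over libraries, two-sided p = 0.857) and to 1.45 points in Esr1 cKO mice (exact permutation p = 0.429). Esr1 cKO minus wild-type came to -0.18 points under oil (exact permutation p = 0.914) and to 1.53 points under tamoxifen (exact permutation p = 0.365). After adjustment over 8 such tests the p-values were 0.857 to 0.914 (exact permutation tests, Benjamini-Hochberg), so no difference in abundance exceeded the spread between mice. The 2 oil differences turned positive when S5 was left out, at 2.41 points for tamoxifen in wild-type mice and 2.48 points for genotype under oil.

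**Figure D2:**
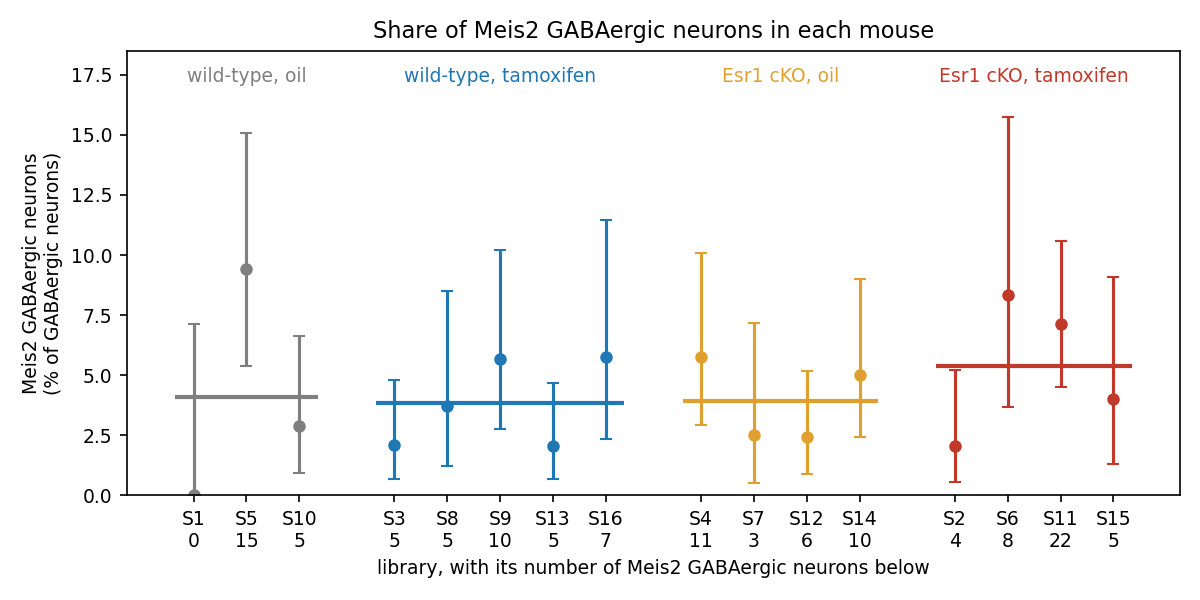
Meis2 GABAergic neurons as a percent of GABAergic neurons (vertical axis) in each of 16 libraries (points, by group), with 95% Clopper-Pearson intervals (bars) and group means (horizontal lines); the number of cells stands under each library. The 4 groups overlap, with S1 at 0% and S5 at 9.43%.

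To find what else marked the cells, UMIs were summed by class in each library and compared with other GABAergic neurons of the same mouse. Only S4, S5, S9, S11 and S14 had at least 10 Meis2 cells (68 cells together), and these 5 libraries made the first comparison. Genes were ranked by log2 fold change among called ones with at least 100 UMIs and 1 direction in at least 80% of libraries. The 12 highest of these included the striatal phosphoprotein gene Arpp21, the MEIS partner Pbx3, the muscarinic receptor Chrm2 and the substance P precursor Tac1. The neuropeptide precursors Avp, Pomc, Vip, Cck, Gal and Cartpt and the hypothalamic genes Dlk1 and Six6 were lower. Of 7358 genes tested, 69 (0.938%) were higher and 158 (2.15%) lower in Meis2 cells with an edgeR adjusted p under 0.05, and the median log2 fold change over all tested genes was -0.09. The split depends on scaling: with DESeq2 size factors in the same fit it was 99 higher and 105 lower. The counts also rest on single mice: without S11 they were 26 higher and 80 lower of 6978 tested (0.373% and 1.15%), without S5 33 and 69, without S9 54 and 84, and without S4 64 and 96.

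All 15 libraries with at least 3 Meis2 cells (121 cells) made a second comparison, chosen after seeing how few libraries reached 10. There, 67 of 8221 genes (0.815%) were higher and 603 (7.33%) lower, with a median log2 fold change of -0.26. DESeq2 size factors moved that median to 0.04 and the split to 160 higher and 152 lower. Without S10 and S11, 13 libraries were left, with 46 of 7104 genes higher, 370 lower and a median of -0.23. List counts for the 13 libraries below are to be read beside these. Between the 2 comparisons, 32 genes were called higher in both (46.4% of the first list and 47.8% of the second) and 142 lower in both (89.9% and 23.5%). The Meis2 cells were the deeper ones, so other GABAergic neurons were also matched to them in UMIs. Of the 44 genes called higher that could be tested that way all 44 kept their sign, and of 82 called lower, 81 did. The matched fit itself, with 1428 genes, called 12 higher and 22 lower.

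**Figure D3:**
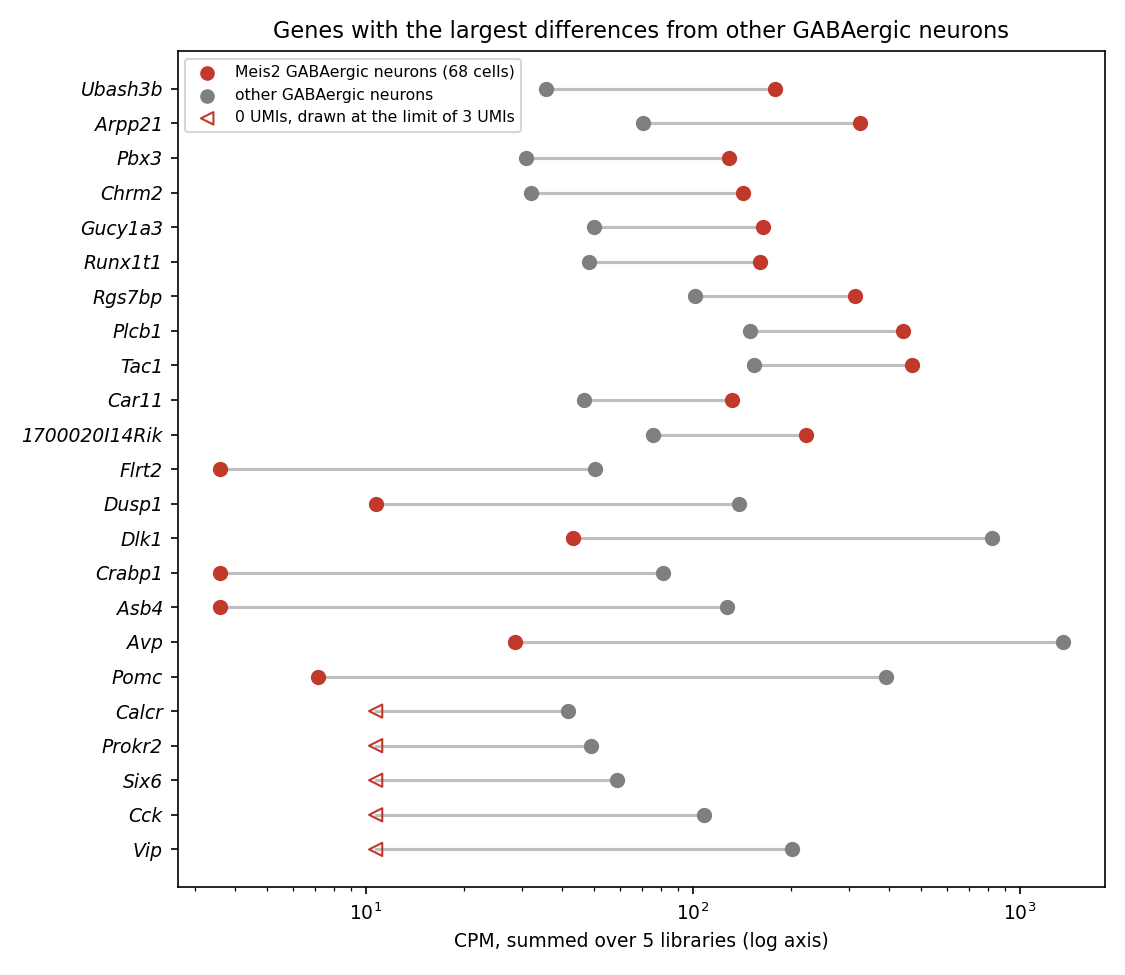
Levels in CPM (horizontal log axis) of 11 genes with the largest and the 12 with the smallest log2 fold change among called genes with at least 100 UMIs, in 68 Meis2 GABAergic neurons (red) and other GABAergic neurons (grey) of 5 libraries. Open triangles mark genes with 0 UMIs in the Meis2 class, drawn at the limit of 3 UMIs.

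Arpp21 encodes a cAMP-regulated phosphoprotein abundant in striatal projection neurons. Its level in Meis2 cells was 153 CPM in S4, 312 in S5, 149 in S9, 136 in S11 and 1197 in S14, against 60.8, 61.8, 103, 39.2 and 112 CPM in other GABAergic neurons. Meis2 cells were higher in each of these mice and in 14 of the 15 libraries, the exception being S2 with 0 UMIs. The log2 fold change was 2.05 (SE 0.27, n = 5, edgeR adjusted p = 8.4e-10), and 2.38 against cells matched in UMIs.

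Pbx3 encodes a homeodomain partner of MEIS proteins. It stood at 196 CPM in S4, 208 in S5, 119 in S9, 77.5 in S11 and 76.4 in S14 in Meis2 cells, and at 46.2, 22.2, 25.3, 19.6 and 50.7 CPM in other GABAergic neurons, so the 2 classes did not overlap. The log2 fold change was 1.95 (SE 0.39, n = 5, edgeR adjusted p = 0.000309). A UMI of Pbx3 was found in 38.8% of Meis2 cells, 7.71% of other GABAergic neurons and 2.32% of non-neuronal cells. At 1000 UMIs a cell these shares were 15.8%, 3.25% and 3.41%. Of the 8 MEIS and PBX genes listed, 4 could be tested and Pbx3 was the one that passed, with a median log2 fold change of 0.47 over the 4.

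Plcb1, a phospholipase C that couples Gq receptors to calcium release, was higher in each of the 5 mice. Its levels were 458, 538, 538, 397 and 306 CPM in Meis2 cells of S4, S5, S9, S11 and S14 and 131, 188, 138, 120 and 197 CPM in other GABAergic neurons of the same mice. The classes did not overlap in these 5 mice, and Meis2 cells were higher in 14 of the 15 libraries. The log2 fold change was 1.44 (SE 0.20, n = 5, edgeR adjusted p = 1.09e-08).

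Receptors and signalling genes made up much of the rest of the named list. Chrm2, the M2 muscarinic acetylcholine receptor, had a log2 fold change of 1.87 (SE 0.39, edgeR adjusted p = 0.000557) but 0 UMIs in Meis2 cells of S9 and of 4 other libraries, and without S11 it did not pass (1.29, edgeR adjusted p = 0.200). Gucy1a3, a subunit of the nitric oxide receptor guanylate cyclase, stood at 165 against 49.8 CPM, and Rgs7bp, which anchors RGS7 proteins that shorten G protein signals, at 315 against 102 CPM. Grm5, the metabotropic glutamate receptor 5, was the 1 gene of 20 tested glutamate receptor subunits that was higher (451 against 229 CPM), and 0 of the 20 were lower. Ubash3b, a phosphatase of the UBASH3 family, stood at 179 against 35.6 CPM, and the transcriptional repressor gene Runx1t1, which did not pass without S11 (edgeR adjusted p = 0.097), at 161 against 48.3 CPM. Car11 stood at 132 against 46.7 CPM and 1700020I14Rik at 222 against 75.8 CPM. The latter did not pass against cells matched in UMIs (log2 fold change 1.17, edgeR adjusted p = 0.142).

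Promoter sequence of these genes is shown because the cells were chosen for a transcription factor. Of the 12 higher genes, 7 were in the RefSeq promoter table (GRCm38.p6, 250 bases before to 50 after a start site). The hexamer TGACAG, the core of known MEIS sites, was searched on both strands (CTGTCA on the other), with no other motif. It was found in a promoter of 2 of the 7 genes and in 6 of their 17 promoters, where 19.2% of all 32851 promoters held it. Of these 6, 5 belonged to Arpp21 alone, so they show no excess over genes. The share of all genes with the hexamer in a promoter is not given. Of the 2 shown, 1 is the promoter of Chrm2, chr6:36387834-36388133, plus strand. The other shown is 1 of 9 of Arpp21, chr9:112185900-112186199, minus strand; 5 of the 9 held the hexamer. Both run 5′ to 3′ with the hexamer in capitals.
Chrm2: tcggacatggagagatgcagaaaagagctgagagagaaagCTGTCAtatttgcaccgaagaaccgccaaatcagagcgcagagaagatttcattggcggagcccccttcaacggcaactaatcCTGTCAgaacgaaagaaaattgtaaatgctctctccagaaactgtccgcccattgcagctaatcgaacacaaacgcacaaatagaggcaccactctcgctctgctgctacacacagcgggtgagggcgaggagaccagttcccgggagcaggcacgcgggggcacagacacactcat
Arpp21: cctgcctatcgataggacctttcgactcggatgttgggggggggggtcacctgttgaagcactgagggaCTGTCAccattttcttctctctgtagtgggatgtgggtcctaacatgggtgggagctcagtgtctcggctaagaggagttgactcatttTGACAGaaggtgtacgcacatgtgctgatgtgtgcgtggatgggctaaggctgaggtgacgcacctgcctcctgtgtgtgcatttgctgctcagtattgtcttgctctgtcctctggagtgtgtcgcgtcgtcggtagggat
These matches are a description of the letters and no evidence of binding.

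Of the striatal projection neuron markers, 2 of 15 tested were higher, Ppp1r1b and Tac1, and none lower, with a median log2 fold change of 0.65. Without S11 it was 4 of 14, with Bcl11b and Penk added, and a median of 0.78. Ppp1r1b encodes DARPP-32, the dopamine-regulated phosphatase inhibitor of striatal projection neurons. It had 16 UMIs in Meis2 cells and 5 in other GABAergic neurons of the 5 libraries (57.3 against 1.91 CPM). At 1.91 CPM in other GABAergic neurons, it could enter the test only through the Meis2 class. Its calls in this list are therefore a description and give the list no support. Over all libraries 28 Ppp1r1b UMIs came from 9.92% of the Meis2 cells (interval 5.23 to 16.7%) in 7 libraries. A UMI was held by 0.708% of other GABAergic and 0.923% of non-neuronal cells. Tac1 was uneven: 589, 278, 89.6, 620 and 535 CPM in S4, S5, S9, S11 and S14, and 0 UMIs in 5 other libraries. Against cells matched in UMIs Tac1 did not pass in the 5 or the 15 libraries. Its log2 fold changes there were 1.25 and 1.57 (edgeR adjusted p of 0.285 and 0.0788). In the 15 libraries Bcl11b and Foxp1, transcription factors of striatal neurons, were also higher (log2 fold changes 1.54 and 0.87, edgeR adjusted p of 0.000517 and 0.0151), and Rgs9 was lower. In the 13 libraries without S10 and S11 the calls of this list were Bcl11b, Ppp1r1b and Tac1, all higher, so the Foxp1 and Rgs9 calls were lost. Drd2 and Adora2a, receptors of indirect-pathway striatal neurons, had 2 UMIs and 0.

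The DLX and lateral ganglionic eminence factors as a list did not set the cells apart in the 5 libraries: 0 of 19 were higher and 1 lower, Nr2f2 (64.4 against 176 CPM), with a median log2 fold change of 0.17. Without S11, Bcl11b was higher as well. Dlx1, which specifies forebrain GABAergic neurons, had 197 against 181 CPM (log2 fold change -0.08, SE 0.25, edgeR adjusted p = 0.932). In the 15 libraries 3 of 21 were higher (Bcl11b, Foxp1 and Sp8) and 4 lower (Dlx1, Nr2f2, Zfhx3 and Zfhx4). Mouse by mouse, Bcl11b and Foxp1 were higher in 10 libraries each, and Dlx1, Zfhx3 and Zfhx4 lower in 12, 11 and 12. Sp8 was higher in 4 and lower in 5, and Nr2f2 lower in 7 and higher in 8, so these 2 calls did not follow most mice. In the 13 libraries without S10 and S11, 1 of 19 was higher (Bcl11b) and 3 lower (Dlx1, Zfhx3 and Zfhx4). The zona incerta and prethalamic list had 1 of 8 higher, Pvalb, which encodes parvalbumin; its 38 UMIs in the 5 libraries all came from S11, and without S11 no gene of the list was called there. Pvalb was also the 1 call of this list in the 15 libraries and in the 13 without S10 and S11.

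Neuropeptide precursors were the list with most called genes: 11 of 17 tested were lower (Agrp, Avp, Cartpt, Cck, Gal, Npy, Nts, Pomc, Prok2, Vgf and Vip) and 1 higher, Tac1, with a median log2 fold change of -3.26. Without S11, 9 of 15 were lower (Avp, Cartpt, Cck, Gal, Npy, Nts, Pomc, Tac2 and Vip) and 3 higher (Penk, Sst and Tac1), with a median of -3.03. In the 13 libraries without S10 and S11, 11 of 17 were lower and 2 higher (Sst and Tac1). Of all 7104 genes tested there, 370 were lower and 46 higher. Avp encodes arginine vasopressin, the antidiuretic hormone of paraventricular, supraoptic and suprachiasmatic neurons. Its UMIs in Meis2 cells were 0 in S4, 0 in S5, 4 in S9, 4 in S11 and 0 in S14, which is 28.6 CPM over the 5, against 203, 371, 624, 1643 and 696 UMIs and 1355 CPM in other GABAergic neurons. The log2 fold change was -5.62 (SE 0.29, n = 5, edgeR adjusted p = 3.42e-41) and Avp was lower in all 15 libraries. Such abundant transcripts also reach droplets as free RNA, and 3.67% of non-neuronal cells held an Avp UMI, beside 9.09% of the Meis2 cells at their greater depth. At 1000 UMIs a cell these shares were 3.89% and 3.33%, so the Meis2 share is not read as expression.

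Pomc, the precursor of melanocortins and beta-endorphin in arcuate neurons, had 2 UMIs in Meis2 cells, both in S4, and 1017 in other GABAergic neurons of the 5 libraries, a 54.4-fold lower level (counting interval 15 to 450). Vip, Cck and Prok2 had 0 UMIs in the Meis2 class of these libraries. Against the limit of 3 UMIs over the class, Vip, a peptide of suprachiasmatic neurons, was at least 18.7-fold lower, and Cck, the cholecystokinin precursor, at least 10.1-fold lower. Gal, the galanin precursor, fell by 3.37 on the log2 scale (SE 0.24, 100 against 973 CPM) and Cartpt, the CART precursor, by 3.66 (SE 0.30, 75.2 against 962 CPM). Both passed against cells matched in UMIs, with log2 fold changes of -3.28 and -3.34.

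Not every peptide was low. Penk, the enkephalin precursor, had 358 against 290 CPM (log2 fold change 0.15, SE 0.27, edgeR adjusted p = 0.887). Sst, the somatostatin precursor, had 333 against 239 CPM (log2 fold change 0.58, SE 0.27, edgeR adjusted p = 0.324) and passed in the 15 libraries at 0.79 (edgeR adjusted p = 0.000894). The level of Sst was uneven between mice: 0 UMIs in S3, S4, S5 and S6, and 5074 CPM from 54 UMIs in S15. It was higher than in other GABAergic neurons in 8 of the 15 libraries and lower in 7. Both Penk and Sst were called higher in the 4 libraries without S11, and Sst in the 13 without S10 and S11.

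Among the other lower genes, Dlk1, an imprinted Notch-like ligand of hypothalamic neurons, stood at 109 CPM in S4, 0 in S5, 59.7 in S9, 38.8 in S11 and 25.5 in S14 in Meis2 cells, against 671, 717, 885, 898 and 858 CPM. It was lower in 14 of 15 libraries, S2 being the exception at 787 CPM. The log2 fold change was -4.33 (SE 0.28, n = 5, edgeR adjusted p = 2.49e-31), and -3.90 against matched cells. Six6, a transcription factor of the ventral diencephalon and eye, the prokineticin receptor Prokr2 and the calcitonin receptor Calcr had 0 UMIs in the 5 libraries and were at least 5.46-fold, 4.57-fold and 3.89-fold lower. Of 28 hypothalamic regional transcription factors 4 could be tested, and Six6 was the 1 that passed, also without S11. In the 15 libraries Prox1 and Six6 were lower, and in the 13 without S10 and S11 none of 3 tested was called. Asb4, a gene of arcuate neurons, and Crabp1, which binds retinoic acid, had 1 UMI each in Meis2 cells, with ratios of 35.7 (counting interval 6.37 to 1416) and 22.7 (4.03 to 900). Neither Crabp1 nor Flrt2 passed without S11. Flrt2 also had 1 UMI, but in the 15 libraries its log2 fold change was -0.22 (edgeR adjusted p = 0.804).

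**Figure D4:**
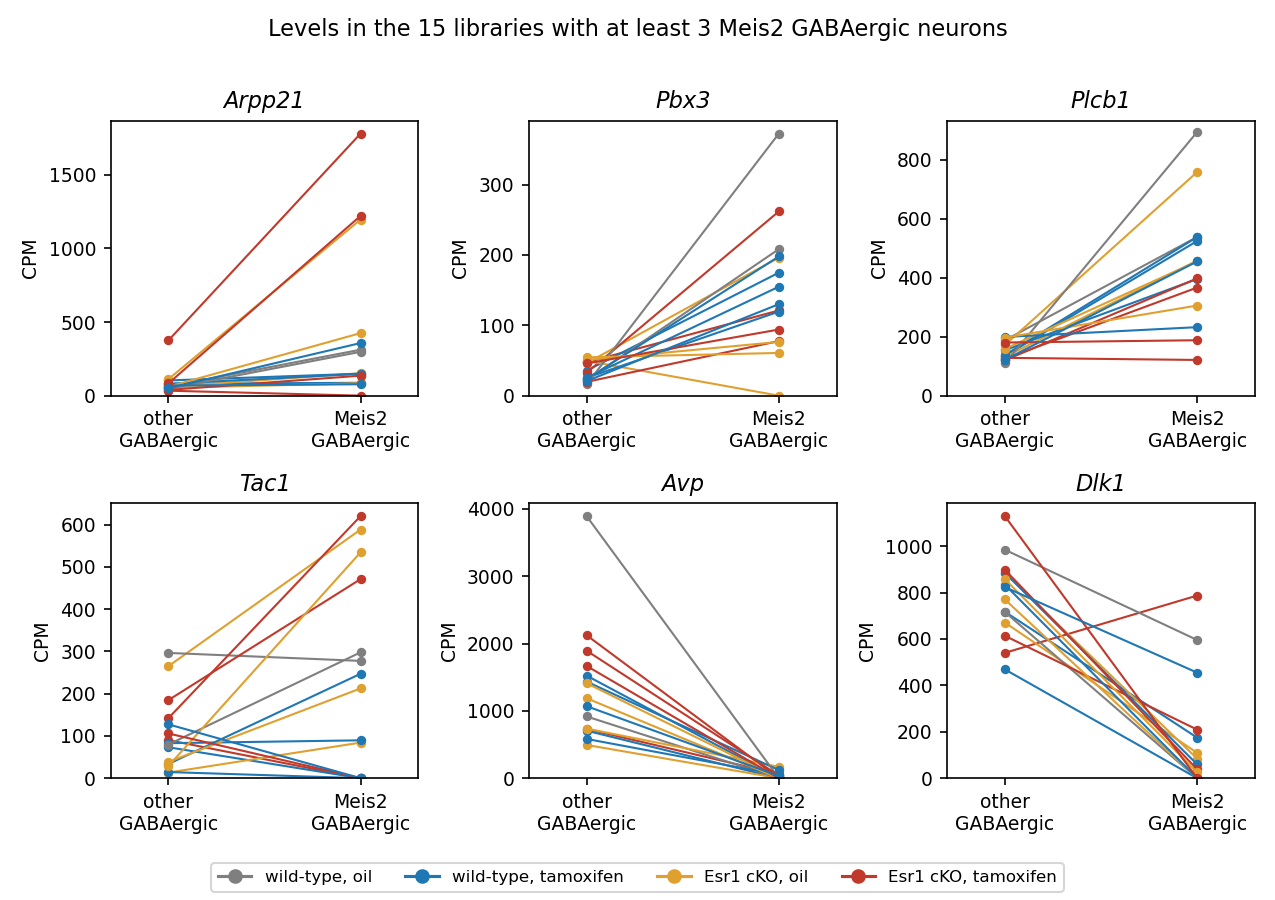
Levels in CPM (vertical axes) of 6 genes in other GABAergic neurons (left) and Meis2 GABAergic neurons (right) of the 15 libraries with at least 3 of the latter, 1 line a mouse, coloured by group. Arpp21, Pbx3 and Plcb1 are higher in Meis2 cells of 14 of 15 mice, Avp is lower in 15 and Dlk1 in 14, and Tac1 is higher in 9.

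Immediate early genes, which neurons induce within minutes of activity and also during dissociation, were lower for 5 of 10 tested (Dusp1, Egr1, Fos, Fosb and Jun) and higher for none, with a median log2 fold change of -1.08. Fos had 175 against 659 CPM and was lower in all 5 mice (log2 fold change -2.04, SE 0.21, and -1.71 against matched cells). In the 15 libraries 9 of 11 were lower (median -0.99), beside 603 of all 8221 genes (median -0.26). Without S11, 4 of 9 were lower in the 4 libraries, and without S10 and S11, 8 of 11 in the 13. The chaperone list went the same way, with 2 of 15 lower (Hspa5 and Pdia3) and a median of -0.39. In the 15 libraries 12 of 15 chaperones were lower (median -0.65), beside the same 603 of all 8221 genes. In the 13 without S10 and S11 it was 6 of 14, beside 370 of all 7104 genes. DESeq2 size factors moved the median of all genes in the 15 libraries from -0.26 to 0.04. Counts for these 2 lists with that scaling are not given. Whether dissociation or scaling had a part in the lower calls of either list was not tested.

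Esr1, which did not pass in the 5 libraries, was lower in the 15 libraries (log2 fold change -1.42, edgeR adjusted p = 0.024), but was not among the calls without S10 and S11. Calcium-binding and interneuron markers split: Calb2 (calretinin) and Pvalb were higher, and Calb1 (calbindin), Cck, Npy and Vip lower, of 9 tested. Calb2 stood at 131, 312, 299, 397 and 178 CPM in S4, S5, S9, S11 and S14. In other GABAergic neurons it stood at 72.9 to 152 CPM, lower in each of the 5 mice and in 13 of the 15 libraries. Its log2 fold change was 1.23 (SE 0.24, edgeR adjusted p = 0.000208), and 1.76 against matched cells. In the 4 libraries without S11, 1 of 8 was higher (Sst) and the same 4 lower, so Calb2 and Pvalb were not called. In the 13 without S10 and S11, 3 of 9 were higher (Calb2, Pvalb and Sst) and 4 lower.

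A few genes of energy metabolism were higher in the 5 libraries. Of 75 nuclear genes of oxidative phosphorylation 4 were higher (Atp5a1, Atp5b, Atp5j and Cox5a) and none lower, with a median log2 fold change of 0.22, and of 17 glycolytic genes 4 were higher (Aldoa, Aldoc, Ldhb and Pfkp), with a median of 0.43. In the 15 libraries none of either list passed, and the medians were -0.12 and 0.08. Nor did any gene of either list pass in the 4 libraries without S11, where the medians were 0.19 and 0.39. Of 14 GABA receptor subunits, Gabrq, the theta subunit, was lower (32.2 against 95.7 CPM), and no subunit was higher. Without S11 no subunit was called.

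Transcripts of other cell types were added up by list, and their part in the results was not tested. The 13 astrocyte genes summed to 1552 CPM in Meis2 cells, 1306 in other GABAergic neurons and 15088 in non-neuronal cells, Aldoc being the most abundant at 337 CPM. The 11 oligodendrocyte genes summed to 686, 1110 and 30096 CPM with Mbp the most abundant and Opalin at 0, and the 9 microglial genes to 19.6 CPM with C1qa, Tmem119 and Csf1r at 0. The 8 glutamatergic markers summed to 34.8 CPM, with Slc17a7, Neurod2 and Neurod6 at 0. The small libraries S7 and S8 were the exception: the 5 cells of S8 had 9196 CPM of astrocyte and 3708 CPM of oligodendrocyte genes, and the 3 cells of S7 had 2527 CPM of oligodendrocyte precursor genes. Neither library entered the comparison of 5.

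Mitochondrial reads also differed between libraries. At least 5% of UMIs were mitochondrial in 16 of the 22 Meis2 cells of S11 and 9 of the 10 of S14, and the other GABAergic neurons of these mice were high too, at medians of 6.85% and 7.78%.

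Whether tamoxifen or Esr1 deletion changed the cells' transcripts could be asked only weakly. With 10 Meis2 cells a library, wild-type oil, wild-type tamoxifen and Esr1 cKO tamoxifen mice were represented by S5, S9 and S11 alone, Esr1 cKO oil mice by S4 and S14, and 1 residual degree of freedom was left. In that fit of 1639 genes, tamoxifen against oil gave 1 call in wild-type mice (0.061%) and 63 in Esr1 cKO mice (3.84%, all lower), and the interaction of both gave 24 (1.46%, all lower). Esr1 cKO against wild-type gave 3 calls under oil (0.183%) and 47 under tamoxifen (2.87%, of which 45 lower), each at an edgeR adjusted p under 0.05.

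The calls that involve Esr1 cKO tamoxifen mice rest on S11, 1 of the 2 libraries that stood apart. Myo3a, first by size, had 78 UMIs in S4, 120 in S5, 68 in S9, 0 in S11 and 62 in S14. Traf5 had 26, 15, 19, 0 and 18, Gm20388 had 16, 23, 21, 0 and 17, and Lrrtm4, a synaptic adhesion gene, 13, 12, 10, 0 and 22. The zeros of Myo3a, Traf5 and Gm20388 in S11 were matched in its other GABAergic neurons, where these genes had 1, 0 and 0 UMIs. Lrrtm4 had 21 UMIs there. Slc1a1 and Grm8, also called and at 0 in the Meis2 cells of S11, had 24 and 13. The single wild-type call, Sst, compared 0 UMIs in S5 with 17 in S9. The calls under oil were Sst (0 and 36 UMIs in S4 and S14 against 0 in S5, so that it rests on S14), Nnat, an imprinted neuronal gene (13 and 26 UMIs in S4 and S14 against 1 in S5), and the adhesion gene Lingo2 (5 and 10 against 46), and they compare 2 mice with 1.

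With the 15 libraries, where each group had 2 to 5 mice, no gene of 551 tested passed in any of the 5 contrasts (0% called by edgeR, and 0 by DESeq2). The number with an unadjusted edgeR p under 0.05 was 6 for tamoxifen in wild-type mice, 14 for tamoxifen in Esr1 cKO mice, 8 for the interaction, 7 for genotype under oil and 17 for genotype under tamoxifen. In simulated libraries of the same size, the tamoxifen contrast in Esr1 cKO mice recovered 14% of genes changed by 1 on the log2 scale and 88.5% of those changed by 2. Of the unchanged genes, 0.328% and 1.34% were called. Each run changed 200 genes, a large part of a test set such as the 551 genes here. Recovery where only a few genes change was therefore not simulated and may be lower. The other contrasts were not simulated. The lowest unadjusted p for genotype under tamoxifen belonged to Gng3, a G protein gamma subunit (log2 fold change -1.32, SE 0.37, edgeR adjusted p = 0.998), and the next to Mbp, a myelin gene of oligodendrocytes. Without S10 and S11 the 5 contrasts of the remaining libraries again gave 0 calls, but wild-type oil mice were then S5 alone, assumed to vary like the other groups.

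The leading genes of the class are given by group as values, with no test. Arpp21 in Meis2 cells was 298 and 312 CPM in wild-type oil mice, 77.4 to 357 under tamoxifen, 84.2 to 1197 in Esr1 cKO oil mice and 0 to 1780 under tamoxifen. Plcb1 was 538 and 894 CPM in wild-type oil mice, 232 to 538 under tamoxifen, 306 to 758 in Esr1 cKO oil mice and 121 to 397 in Esr1 cKO tamoxifen mice. Arpp21 overlapped between treatments in both genotypes. Plcb1 overlapped in Esr1 cKO mice, whereas in wild-type mice the higher tamoxifen values came up to the lower oil value without passing it.

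The 121 cells were clustered on genes outside the rule to describe how they differ among themselves, and 4 clusters resulted. Since the clusters were made from these genes, the values below are descriptions with no test, and the clusters are called by number.

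Cluster 3 (24 cells from 11 libraries, at most 5 from 1 mouse) was led by Penk, Arpp21, Ppp1r1b, Ptk2b, Crym, Foxp2 and Bcl11b. Penk reached 2535 CPM there and 28.9 in the other Meis2 cells, Arpp21 1698.5 and 103 CPM, and Ppp1r1b 330 and 5.26 CPM. The striatal marker list summed to 5603 CPM in the cluster and 1030.5 in the rest, with 14 of 18 genes higher. All 12 Meis2 cells with a Ppp1r1b UMI also held Arpp21, and 10 of these 12 were in cluster 3. The higher Arpp21 of the whole class was therefore mostly carried by this cluster (134 of 173 UMIs), whereas Pbx3 was spread over the 4 clusters at 101 to 154 CPM.

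Cluster 4 was small and came mostly from 1 mouse: 9 cells, of which 7 were from S5, 1 from S3 and 1 from S12. Otx2, a homeodomain factor known from midbrain and other caudal GABAergic neurons, was found in 8 of the 9 cells (26 UMIs) and in no other Meis2 cell. Lhx1, Gata3, Igf1, Cxcl14, Igsf3 and Reln went with it, and 6 of the 8 Otx2 cells held Lhx1. Penk, Sst, Isl1 and Ppp1r1b were at 0 there. S5 also had 6 Meis2 cells in cluster 1 and 2 in cluster 3, where Otx2 had 0 UMIs.

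Cluster 2 held 41 cells, of which 21 were from S11 and 4 from S10, or 25 in all from the 2 libraries that stood apart. Its leading genes included Sst, Sparc, Apoe, Ecel1, the sodium pump subunit gene Atp1b2 and Isl1, a LIM factor of ventral forebrain neurons. Astrocyte genes moved with this cluster: the 13 of the list summed to 2323 CPM there and 1106.5 CPM in the other Meis2 cells, 12 of them higher, with Apoe the most abundant. All 62 Pvalb UMIs of the class were in 9 of its cells. Cluster 1 held 47 cells of 14 libraries, at most 9 from 1 mouse and 1 from S10 and S11, and was led by Ttc17, Kcnq1, Lrrtm4, Csmd3, Xkr4 and Dscam. Lrrtm4 and Kcnq1 are among the genes at 0 in Meis2 cells of S10 and S11. With the cells of both libraries left out of the same clusters, cluster 1 (46 cells) had 417 CPM of Kcnq1 and 678 of Lrrtm4, against 141 and 252 CPM in the other Meis2 cells. Cluster 2 then had 16 cells, with Sst at 3517 against 122 CPM, Sparc at 628 against 73.2, Apoe at 1310 against 160 and the astrocyte list at 4019 against 1112 CPM. Of these 16 cells, 2 were from S8, the library high in astrocyte genes. With S8 left out as well, 14 cells remained, with Sst at 3925 against 91.7 CPM, Ecel1 at 360 against 69.7 and Isl1 at 240 against 73.4. Apoe was then at 100 against 143 CPM, Sparc at 100 against 77.1 and the astrocyte list at 1101 against 1108 CPM, so the higher Apoe of these cells came from S8. Without S10 and S11 but with S8 kept, cluster 3 had 23 cells, with Penk at 2540 against 33.9 CPM. No cell held both Sst and Penk, of 21 with the first and 16 with the second, and 3 held both Tac1 and Penk, of 25 with Tac1.

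**Figure D5:**
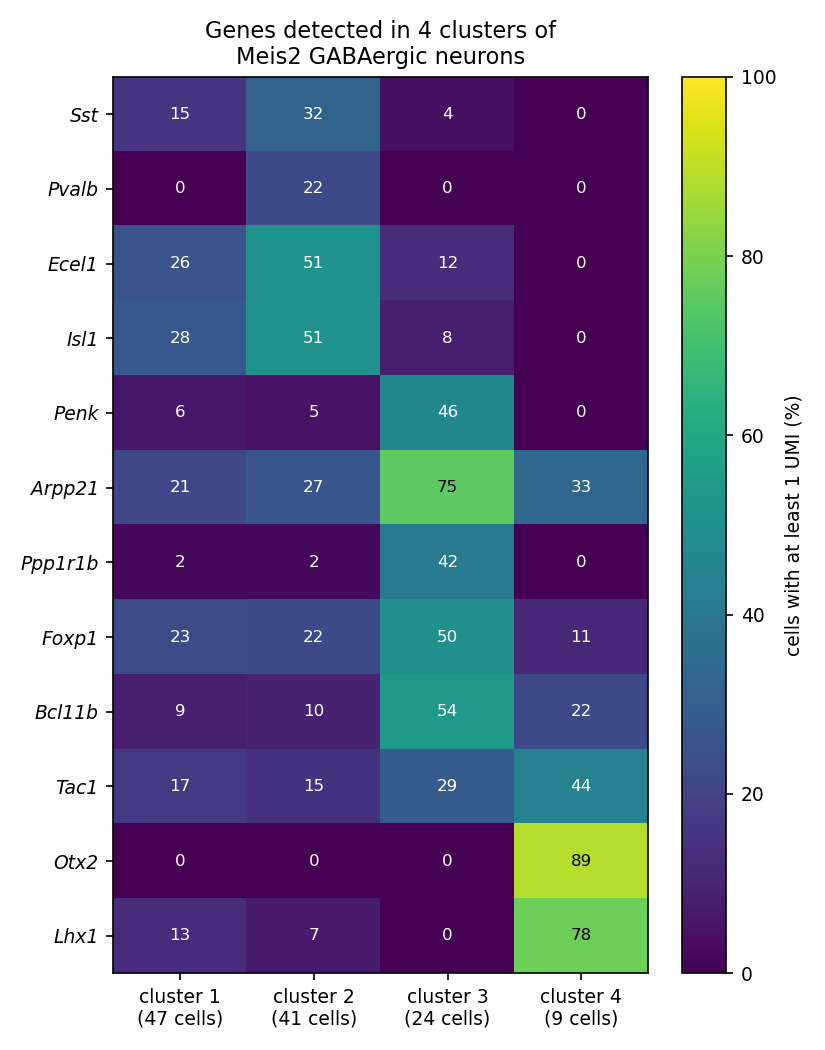
Percent of cells with at least 1 UMI (colour and numbers) of 12 genes (rows) in 4 clusters of the 121 Meis2 GABAergic neurons (columns, with cell numbers). Cluster 3 is high in Penk, Arpp21 and Ppp1r1b, cluster 4 in Otx2 and Lhx1, and Pvalb is found in cluster 2 alone.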

How the data were processed

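Drop-seq libraries of 16 mice were analysed from the gene by cell matrices of raw UMI counts that the authors deposited, 1 a library, with 5403 to 13515 barcodes and 2634253 to 8038158 UMIs each. The submitters' processing notes name STAR 2.6, Seurat 3.6.1 and the build mm10. The counting program and annotation are not given in the sources used here. No column of per-sample values was left unused.

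The limits on genes (over 200, below 4000) and on mitochondrial UMIs (below 15%) left 55675 cells. The UMIs of each class were added up by library, and libraries with at least 10 Meis2 cells were tested with the quasi-likelihood test of edgeR 4.0.16 (R 4.3.3; TMM, filterByExpr, Benjamini-Hochberg at 0.05, two-sided). Both classes of a mouse were compared with the library as a block, and treatments and genotypes were compared with all 4 groups in 1 fit. The 13 rule genes and 34 mitochondrial genes stayed in library sizes and out of the tests. CPM is the counts per 1000000 of the added UMIs. The study's own test ran over single cells, whereas the mouse is the replicate here. Shares of cells were compared by an exact permutation test over libraries (scipy 1.17.1), with p-values adjusted over 8 tests (4 contrasts, as shares of GABAergic neurons and of all neurons). Non-neuronal cells had at most 1 of the 8 neuronal genes. Intervals are 95% Clopper-Pearson, and a count of 0 allows up to 3 counts.

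Doublets were called with Scrublet (scanpy 1.11.5) and left in, since none was a Meis2 cell. Clusters used 500 variable genes, 10 principal components, 15 neighbours and a Leiden resolution of 0.5. The fits were tested on simulated data with 200 changed genes: at 5 libraries the class comparison recovered 25.4% of genes changed by 1 on the log2 scale, 81.5% by 2 and 93.4% by 3. The named genes are those of the lists and the 12 with the largest and 12 with the smallest log2 fold change among called genes with at least 100 UMIs and 1 direction in at least 80% of libraries. For treatments and genotypes they are up to 10 called genes by size whose groups do not overlap, or the 3 with the smallest p where none was called. Some genes that these rules name are not reported here. Genes that share reads with close copies, or lie antisense to another gene, may be miscounted. The rule, the gene lists and the tests were chosen with earlier results of these data known. The fits with libraries of at least 3 Meis2 cells were added after the data were seen. Alternatives with DESeq2 1.42.0, other filters, thinning to 1000 UMIs and left-out libraries are given at the end.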

Additional observations from a re-analysis of the deposited data

Results flagged for a closer look

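Of 30 groups of 4 or 5 libraries tested for a sample apart, 4 had one, where chance gives about 1 in 20. In the Meis2 cells of wild-type tamoxifen library S8 (5 cells) astrocyte genes summed to 9196 CPM, against 780 to 1225 CPM in the other libraries of that group, and oligodendrocyte genes to 3708 CPM against 508 to 874 CPM. The median mitochondrial share of the same cells was 3.26%, against 2.05 to 2.24%. In the 3 Meis2 cells of Esr1 cKO oil library S7, oligodendrocyte precursor genes summed to 2527 CPM, against 60.7 to 131 CPM in the other libraries of that group. Their part in any result was not tested.

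The interaction of tamoxifen and genotype called 24 genes in the 5 libraries (edgeR), in a fit where wild-type oil, wild-type tamoxifen and Esr1 cKO tamoxifen mice were 1 library each (S5, S9 and S11) and 1 residual degree of freedom was left, so the interaction and the single mouse cannot be told apart. Of these genes, Myo3a, Traf5 and Gm20388 had 1, 0 and 0 UMIs in the other GABAergic neurons of S11 too. Lrrtm4, Slc1a1 and Grm8 had 21, 24 and 13 there. Sst, also among the calls, had 40 UMIs in the Meis2 cells of S11 and 405 in its other GABAergic neurons. With the 15 libraries the interaction gave 0 calls, and 8 genes had an unadjusted p under 0.05.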

How the results depend on the processing

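Of the named genes of the class comparison, 357 values over all alternatives kept their direction and side of the threshold, 59 kept the direction alone and none turned. The counts moved more, and the cause was not tested in any setting. Against 69 genes higher and 158 lower in 5 libraries, there were 105 lower with DESeq2 size factors and 31 and 26 with the DESeq2 test. With no filter on low counts there were 30 and 283. Members from 1 Meis2 UMI gave 130 and 228, but this also raised the libraries to 13. Below 5% mitochondrial UMIs the counts were 18 and 44 (3 libraries), without S10 and S11 26 and 80 (4 libraries), and thinned to 1000 UMIs 6 and 41 (2624 genes tested). They were 39 and 81 without shared barcodes (4 libraries), 12 and 22 with cells matched in UMIs (1428 genes tested), and 10 and 14 with no library block. In 15 libraries 603 were lower. Leaving out 1 library gave 26 to 64 higher and 69 to 121 lower. Against 67 higher and 603 lower in 15 libraries, there were 370 lower without S10 and S11, 143 and 108 with the DESeq2 test, 160 and 152 with DESeq2 size factors, 15 higher when thinned and 37 and 60 when matched, and leaving out 1 library gave 51 to 79 and 443 to 759.

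For tamoxifen in wild-type mice, tamoxifen in Esr1 cKO mice, the interaction, and genotype under oil and under tamoxifen, the 5 libraries gave 1, 63, 24, 3 and 47 calls. The DESeq2 test gave 0, 4, 2, 0 and 2, thinning 0, 4, 2, 0 and 3, and members from 1 Meis2 UMI or the 15 libraries 0 each. With no filter the last 4 were 39, 15, 5 and 29, and with the groups of the contrast alone tamoxifen in Esr1 cKO mice gave 12. Where a library could be left out the counts were 1, 44 to 58, 2 to 4 and 35 (none for the interaction), and 0 in the 15 libraries. Lingo2 under oil and Traf5 under tamoxifen turned to log2 fold changes of 0.18 and 0.30 in the 15 libraries.

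Among differences in shares, genotype under oil turned to 0.0091 points with members from 3 Meis2 UMIs and to 0.931 with members from 1. Thinned to 1000 UMIs it was -1.74 and genotype under tamoxifen 0.149, which was 4.17 with members from 1 Meis2 UMI. Leaving out 1 library gave -2.24 to 2.48 for it (0.285 without S7, 0.319 without S12), -2.31 to 2.41 for tamoxifen in wild-type mice (0.188 without S3, 0.201 without S13), 0.469 to 2.56 for tamoxifen in Esr1 cKO mice and 0.541 to 2.63 for genotype under tamoxifen. Fits with members from 3 Meis2 UMIs or libraries of at least 20 members could not be run, since 1 library was left, nor could the comparison with 9 Meis2 glutamatergic neurons. No replicate number is shared between groups (libraries S1 to S16). The fours of libraries that share barcodes, or successive fours of library numbers, were used as a block instead, chosen after seeing the data: the 5 contrasts of the 15 libraries again gave 0 calls, and the mean differences in shares within fours were -0.28, 1.45, -0.54 and 1.53 points in the order of the report. Exact permutation within fours could not pass for the first 3, where the smallest p it allows is 0.25, 0.125 and 0.25, and gave p = 0.458 and 0.25 for the last. With 121 cells, genes of a few UMIs a library were beyond the depth of these tests.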
